A study of Ictidomys tridecemlineatus with 31 samples.

Results

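Cyclic AMP (cAMP) levels in a cell are set by adenylyl cyclases, which make it from ATP, and by phosphodiesterases, which break it down. In the kidney, hormone receptors coupled to stimulatory or inhibitory G proteins act on the cyclases, and the cAMP they make works largely through protein kinase A. Vasopressin acts in this way on water reabsorption in the collecting duct, and parathyroid hormone on phosphate transport in the proximal tubule.

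The genes described here were Adcy1, Adcy3, Adcy4, Adcy5, Adcy6, and Adcy9, which encode membrane adenylyl cyclases, and Pde4a, Pde4b, Pde4d, and Pde7a, which encode cAMP-specific phosphodiesterases. They were found by gene symbol in a table of 12863 genes, in which 9 of the 10 had a row, and no row carried the symbol Adcy3. The set was selected on known values of the same animals: Adcy1 was singled out by its difference between interbout aroused and summer active kidneys. Its levels in those states are therefore given as a description with no test, and the counts of genes below cover the other 8. The table held genes that had passed a filter on low values in at least 1 state, so a gene could enter it through the state in which it was high.

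Kidney RNA was measured by RNA-Seq in 31 colony-bred or purchased 13-lined ground squirrels (Ictidomys tridecemlineatus), 17 females and 14 males, with 1 library per animal. The labels give no drug, altered allele, or age, and every animal was perfused with buffer before a fragment of 1 kidney was taken. Summer active (SA) animals were warm and fattening in August (n = 5), and spring dark (SpD) animals were warm again after hibernation while still housed in the dark hibernaculum (n = 5). The other 4 states came from the hibernation season: interbout aroused (IBA, rewarmed between torpor bouts, n = 5), entrance (Ent, cooling into torpor, n = 5), early arousing (EAr, starting to rewarm from the cold, n = 5), and later arousing (LAr, still rewarming, n = 6). Libraries came from 2 experiments that used different kits. Experiment 1 held 3 IBA, 3 Ent, and 3 SpD animals, and experiment 2 held the other 22, among them all SA, EAr, and LAr animals.

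Values are rlog values, a normalized and variance-stabilized count on the log2 scale, from which the authors had removed the difference between experiments. They are not divided by gene length, so levels are compared between states and not between genes, and rlog values understate the changes of weakly expressed genes. The read depth behind each value is unknown, and medians over all genes lay between 9.74 and 9.88 in the 31 animals. The LAr animal K113 and the SA animal K137 stood apart from their groups and were left out of the fit, as the study had done. The fit held the remaining 29 animals. Proximal tubule markers (Slc27a2, Lrp2, Slc34a1, and Slc5a12) averaged 13.63 in K113 and 13.93 in K137, against 14.47 to 14.82 in the other LAr and 14.98 to 15.22 in the other SA animals. Inner medulla markers (Slc14a2, Aqp1, and Akr1b1) averaged 14.10 and 14.75 in these animals, against 10.95 to 11.26 and 11.28 to 12.51. The SpD animal K130, which stayed in the fit, was also low in proximal tubule markers (13.33) and high in inner medulla markers (13.76). The IBA animal K104, also in the fit, was at 13.89 and 13.42, against 13.84 to 14.65 and 11.26 to 13.42 over all IBA animals. The inner medulla markers did not all move together. Slc14a2 was above the rest of its state in K113, K137, and K130. Aqp1 was below the rest in K113 (14.14, against 14.22 to 14.63) and within their range in K137. Akr1b1 was within the range of the rest in K130. None of 7 adrenal cortex and none of 5 adrenal medulla markers had a row in the table.

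Adcy1 (gene3219), a calcium-stimulated cyclase best known from the brain, had the widest span of state means among the 9 genes. In SA, its rlog value was 11.06 in K138, 10.08 in K139, 10.93 in K140, and 10.19 in K141. In IBA, it was 7.07 in K1, 6.40 in K104, 6.64 in K171, 7.50 in K4, and 7.69 in K7. Every SA animal in the fit was above every IBA animal, and the means were 10.57 ± 0.50 (SD, n = 4) and 7.06 ± 0.55 (n = 5). Adcy1 was chosen on this difference, and 18.8% of all genes had no overlap between these states. The fitted difference, IBA minus SA, was -3.83 on the log2 scale, which corresponds to a 14.2-fold lower level in IBA, and -3.78 without K104. The plain state means, not adjusted for sex or experiment, differed by 3.50, or 11.3-fold.

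The torpor and rewarming states lay near IBA. In Ent, Adcy1 was at 7.94 in K155, 9.21 in K167, 7.65 in K2, 6.73 in K5, and 7.28 in K8. In EAr, it was at 7.61 in K154, 6.68 in K156, 7.35 in K157, 8.57 in K158, and 8.10 in K165. In LAr, it was at 7.27 in K109, 7.05 in K111, 7.90 in K112, 6.47 in K115, and 7.76 in K116. All 15 of these animals were below the lowest SA animal of the fit, and the 3 states overlapped each other and IBA. The share of all genes with SA separate from these 3 states was not counted. In order of means, SA was followed by SpD (8.21 ± 1.37), Ent (7.76 ± 0.93), EAr (7.66 ± 0.72), LAr (7.29 ± 0.58), and IBA, with n = 5 in each. The step from SA to SpD, 2.36, was the only one between neighbors in this order that exceeded the pooled SD of 0.83.

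SpD held both high and low animals. Adcy1 was at 8.87 in K3, 9.47 in K6, and 9.21 in K9, which belonged to experiment 1, but at 6.41 in K130 and 7.07 in K84, which belonged to experiment 2. The animals of the 2 experiments did not overlap, and only the first 3 were above all IBA animals. Within experiment 1, the SpD mean was 1.76 higher than the IBA mean on the log2 scale, whereas within experiment 2, with 2 animals in each state, it was 0.22 higher. Ent differed between the experiments as well: Ent minus IBA was -0.20 in experiment 1 and 2.06 in experiment 2.

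Adcy1 can be tested in comparisons that hold neither SA nor IBA animals. EAr minus Ent was 0.18 ± 0.54 (SE) on the log2 scale (limma, Benjamini-Hochberg adjusted p over all genes, called q from here on, 0.945), and LAr minus EAr was -0.29 ± 0.48 (q = 0.933). SpD minus the mean of Ent, EAr, and LAr was 0.42 ± 0.42 (q = 0.488). This last difference was not stable: it was -1.10 in experiment 2 alone (q = 0.0456) and 1.15 with only K130 left out (q = 0.0705). EAr minus Ent was not stable either, and ranged from -0.96 to 0.99 under the alternatives (q from 0.506 to 0.999). Its fitted sign was opposite to the order of the plain state means, 7.66 in EAr and 7.76 in Ent, which are not adjusted for sex or experiment. The comparison of the sexes contrasted the animals of all states directly, SA and IBA among them, with state as a term. For Adcy1, females minus males differed by -0.42 ± 0.28 (limma q = 0.843).

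**Figure D1:**
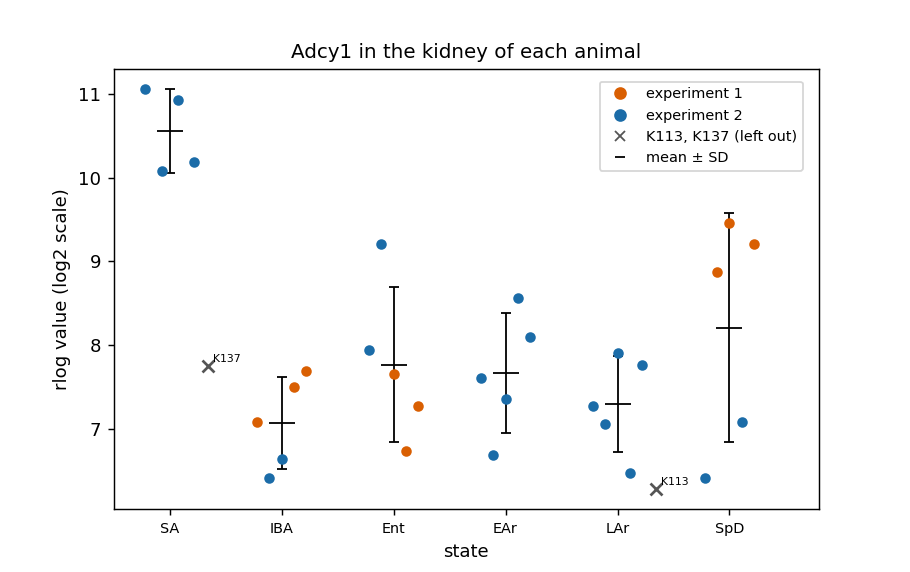
Adcy1 rlog value (log2 scale, y axis) in each animal by state (x axis), colored by experiment, with the mean ± SD of the animals in the fit as black bars and K113 and K137 as crosses. The 4 SA animals of the fit lie between 10.08 and 11.06, above all other animals, and the SpD animals split by experiment into 8.87 to 9.47 and 6.41 to 7.07.

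Both animals left out were low in Adcy1, at 7.75 in K137 and 6.28 in K113. K137 minus the mean of the other 4 SA animals was -2.81 on the log2 scale, and with all 31 animals the IBA minus SA difference was -3.31. Its proximal tubule markers were low too, and the same was seen in SpD, where the markers averaged 13.33 in K130 and 14.21 in K84 but 15.01 in K3, 14.98 in K6, and 15.29 in K9. As state means, the markers were at 15.13 in SA, 14.32 in IBA, 14.56 in Ent, 14.85 in EAr, 14.66 in LAr, and 14.56 in SpD. Slc34a1, the sodium-phosphate cotransporter of the proximal tubule, was lower in IBA than in SA by a fitted log2 difference of -1.59 (limma q = 0.00278). This was the largest difference among these markers. The others were at -1.18 for Slc5a12 (q = 0.0259), -0.81 for Slc27a2 (q = 0.0245), and -0.46 for Lrp2 (q = 0.298). The part of tubule content in the Adcy1 differences was not tested. In bulk tissue, fewer cells of a type and less RNA per cell cannot be told apart.

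**Figure D2:**
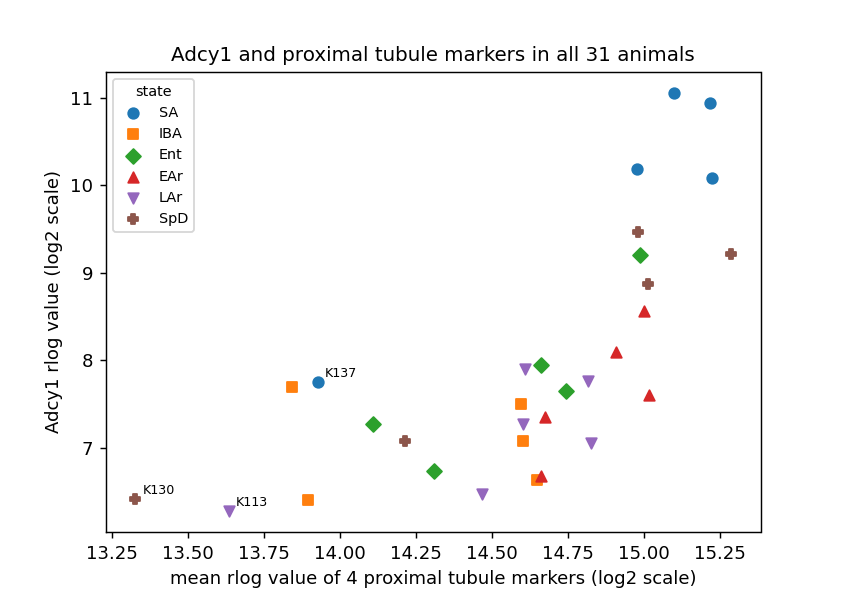
Adcy1 rlog value (y axis) against the mean rlog value of 4 proximal tubule markers (x axis), both on the log2 scale, with 1 point per animal for all 31 and a symbol for each state. Among animals with marker means from 14.98 to 15.29, Adcy1 ranges from 7.61 in EAr to 11.06 in SA, and K130, K113, and K137 lie at the left, between 13.33 and 13.93, as do the IBA animals K7 (13.84) and K104 (13.89).

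Of 11943 genes with a symbol, 82 had a Pearson r with Adcy1 over 0.8 across the 29 animals, and 7 had an r under -0.8. The 5 most alike were Hapln4 (r = 0.939), Nox4 (0.924), Pbld (0.918), CUNH2orf72 (0.900), and Tinag (0.896). Nox4 encodes an NADPH oxidase abundant in kidney, and Tinag encodes a tubular basement membrane protein. Hapln4, a hyaluronan and proteoglycan link protein gene, had a mean of 11.24 in SA and 7.91 in IBA, so its difference between these states was close in size to that of Adcy1, whereas Tinag had means of 12.23 and 11.24. The 3 most opposite genes were Rnf220 (-0.859), Irf3 (-0.843), and Bckdk (-0.824). Among the 8 other cyclases and phosphodiesterases, r with Adcy1 was highest for Pde4d (0.660), followed by Adcy9 (0.433), and lowest for Pde4a (-0.445). These correlations describe animals that share states and experiments, and they carry no test.

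The other 8 genes spanned much narrower ranges of state means, from 0.35 log2 units for Adcy5 to 0.74 for Pde4d, against 3.50 for Adcy1. Genes were called at q under 0.001, the study's threshold. Of the 8, 1 was called across the 6 states by the limma F test, which was Adcy4, against 9.34% of all genes. At q under 0.05 there were 3 of 8 (Adcy4, Pde4d, and Pde7a), against 46.1% of all genes, so the share was not above the background.

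Adcy4 (gene21141), a calcium-insensitive cyclase expressed in vessels among other tissues, was higher in the active season. In SpD, its rlog value was 8.42 in K130, 7.74 in K3, 7.60 in K6, 8.14 in K84, and 7.78 in K9, and in SA it was 7.97, 7.94, 7.49, and 7.81 in K138 to K141. In LAr, it was 7.29, 7.32, 7.39, 7.31, and 7.10 in K109, K111, K112, K115, and K116, all below every SA and SpD animal. EAr (7.37 to 7.64), Ent (7.24 to 7.69), and IBA (7.42 to 7.78) lay between and overlapped the active states. The share of all genes whose LAr animals were separate from every SA and SpD animal was not counted.

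The mean of SA and SpD exceeded the mean of the 4 hibernation states by 0.41 ± 0.07 log2 units for Adcy4 (limma q = 0.000169), a change of 1.33-fold. The q across states was 0.000528, and SpD minus the mean of Ent, EAr, and LAr was 0.61 ± 0.10 (q = 0.000154). Between IBA and LAr, whose animals did not overlap, Adcy4 was 0.47 ± 0.13 higher in IBA (q = 0.0141). No pair of states was called for this gene.

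The SpD animals of the 2 experiments differed in Adcy4 as well, but in the opposite order to Adcy1. The 3 SpD animals of experiment 1 lay between 7.60 and 7.78, and the 2 of experiment 2 were at 8.14 and 8.42. SpD minus IBA was 0.02 within experiment 1 and 0.74 within experiment 2. In experiment 2 alone the seasonal difference was 0.58 (q = 0.000146). Without K130, SpD minus the cold states was 0.48 and was no longer called (q = 0.00551), and the seasonal difference was 0.36 (q = 0.000402).

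Endothelial markers (Kdr, Pecam1, and Nrp1) moved with Adcy4. They averaged 11.29 in SpD, 11.08 in SA, 10.95 in IBA, 10.89 in Ent, 10.80 in EAr, and 10.76 in LAr, and 11.87 in K130 alone. Kdr, a receptor for vascular endothelial growth factor, was higher in SpD than in Ent, EAr, and LAr by 0.62 log2 units (limma q = 0.01), and Pecam1, an endothelial adhesion molecule, by 0.62 (q = 0.0116). Some markers of other cells were also higher in SpD than in the cold states. The water channel genes Aqp3 (1.25, limma q = 0.00168) and Aqp2 (1.09, q = 0.00341) of principal cells had larger differences. So did Slc14a2 (2.68, q = 0.022) and Aqp1 (0.73, q = 0.00128), listed for the inner medulla. The loop of Henle markers Slc12a1 (0.88, q = 0.0249) and Umod (0.79, q = 0.0296) also had larger differences. Among fibroblast markers, Col1a1 did as well (0.86, q = 0.0282), but not Plac8 (-0.18, q = 0.473) or S100a4 (0.04, q = 0.948). Hsd11b2 of principal cells (-0.02, q = 0.948) and Akr1b1 of the inner medulla list (-0.16, q = 0.484) were not higher. The 4 proximal tubule markers did not all move together. Slc27a2 was lower (-0.65, q = 0.0143), and Slc5a12 (-0.49, q = 0.203) and Lrp2 (-0.24, q = 0.468) were lower with a larger q. Slc34a1 went the other way (0.34, q = 0.357). The part of vessel, medullary, or other cell content in the Adcy4 differences was not tested.

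The remaining cyclases had no call. Adcy6 (gene8373), a calcium-inhibited cyclase that acts downstream of vasopressin in the collecting duct, lay between 11.63 and 12.34 in 28 of the 29 animals. The exception was K130, at 12.81. SpD minus the cold states was 0.36 ± 0.11 (limma q = 0.0203), and 0.14 without K130 (q = 0.38). LAr and EAr did not overlap, with all 5 LAr animals between 11.74 and 11.84 and all 5 EAr animals between 11.89 and 12.07, but the difference of -0.16 ± 0.13 was not called (q = 0.804), and 6.84% of all genes did not overlap between these states. Adcy5 (gene21351), the cyclase most like Adcy6, had an active season difference of 0.26 ± 0.08 (q = 0.0134), and ranged from 7.51 in an IBA animal to 8.56 in a SpD animal. Adcy9 (gene20226), a widely expressed cyclase, ranged from 10.46 in K130 to 11.67 in the EAr animal K158. Its state means overlapped throughout, and EAr minus Ent was 0.48 ± 0.20 (q = 0.592). SpD minus the cold states was -0.32 ± 0.15 (q = 0.134), but in experiment 2 alone, with 2 SpD animals, it was -0.78 and was called (q = 0.000963).

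Among the phosphodiesterases, Pde4d (gene3504) had the profile nearest to Adcy1. Its product is one of the main cAMP phosphodiesterases of many tissues. In SA, its rlog value was 9.24, 9.59, 9.11, and 9.15 in K138 to K141. In IBA, it was 8.70 in K1, 8.35 in K104, 8.80 in K171, 8.78 in K4, and 8.52 in K7, all below SA. The SpD values of 8.46, 8.77, 8.45, 8.54, and 8.76 in K130, K3, K6, K84, and K9 were below SA too. In Ent, Pde4d was 8.79, 9.27, 8.78, 8.37, and 9.20 in K155, K167, K2, K5, and K8, and overlapped SA. In EAr (8.38 to 8.79) and LAr (8.40 to 8.77) it did not. The share of all genes without overlap between SA and EAr, or SA and LAr, was not counted.

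IBA minus SA was -0.63 ± 0.16 for Pde4d (limma q = 0.00768), and SA minus SpD was 0.66 ± 0.16 (q = 0.0152). Across states q was 0.00237, and no comparison reached the threshold. Pde4d was the only one of the 8 whose IBA and SA animals did not overlap, against 18.8% of all genes, and the only one with no overlap between SA and SpD, against 9.37%. With K137, where it was at 8.17, both differences shrank, to -0.42 (q = 0.182) and 0.45 (q = 0.23).

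A second row of the table, named PDE4D_like (G9710), also carried the Pde4d symbol, and was not kept because its mean was lower (8.13 against 8.70). It was named after its values were seen. Its r with the kept row was 0.765 across the 29 animals, and it was called across states (limma q = 8.16e-05) and between the seasons, with an active season difference of 0.26 ± 0.05 (q = 0.00057). Its means were 8.52 in SA, 8.31 in Ent, 8.16 in SpD, 8.10 in IBA, 8.03 in LAr, and 7.87 in EAr, and its EAr animals (7.84 to 7.91) were all below its Ent animals (8.12 to 8.49). The share of all genes without overlap between EAr and Ent was not counted. Reads may be divided between 2 near-identical models, so the level of each row is uncertain.

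Pde7a (gene6499), a phosphodiesterase with high affinity for cAMP, ran in the opposite direction, with its highest means in the cold and rewarming states. In LAr, its rlog value was 9.86 in K109, 10.26 in K111, 10.18 in K112, 10.01 in K115, and 9.66 in K116. In IBA, it was 9.56, 9.53, 9.23, 9.40, and 9.56 in K1, K104, K171, K4, and K7, all below LAr. EAr values lay between 9.69 and 10.22, SA values between 9.27 and 9.77, and those of Ent (9.12 to 10.25) and SpD (9.02 to 10.15) were spread over most of the range.

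IBA minus LAr was -0.70 ± 0.20 for Pde7a (limma q = 0.0161), SpD minus the cold states was -0.53 ± 0.15 (q = 0.0139), and the active season difference was -0.31 ± 0.11 (q = 0.0338). None of these was called at q under 0.001. Adcy4 and Pde7a were the 2 of 8 genes without overlap between IBA and LAr, against 13.7% of all genes.

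Pde4a (gene18570) had its lowest mean in SA, 9.28 ± 0.25 (SD, n = 4), and its highest in SpD, 9.80 ± 0.33 (n = 5). IBA minus SA was 0.50 ± 0.17 (limma q = 0.0397) and SA minus SpD was -0.63 ± 0.17 (q = 0.0251), with overlap in both. With all 31 animals these values were 0.35 (q = 0.282) and -0.48 (q = 0.213). Pde4b (gene15119), an isoform prominent in immune cells, lay between 9.64 and 10.66 over all states, and its q across states was 0.271.

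**Figure D3:**
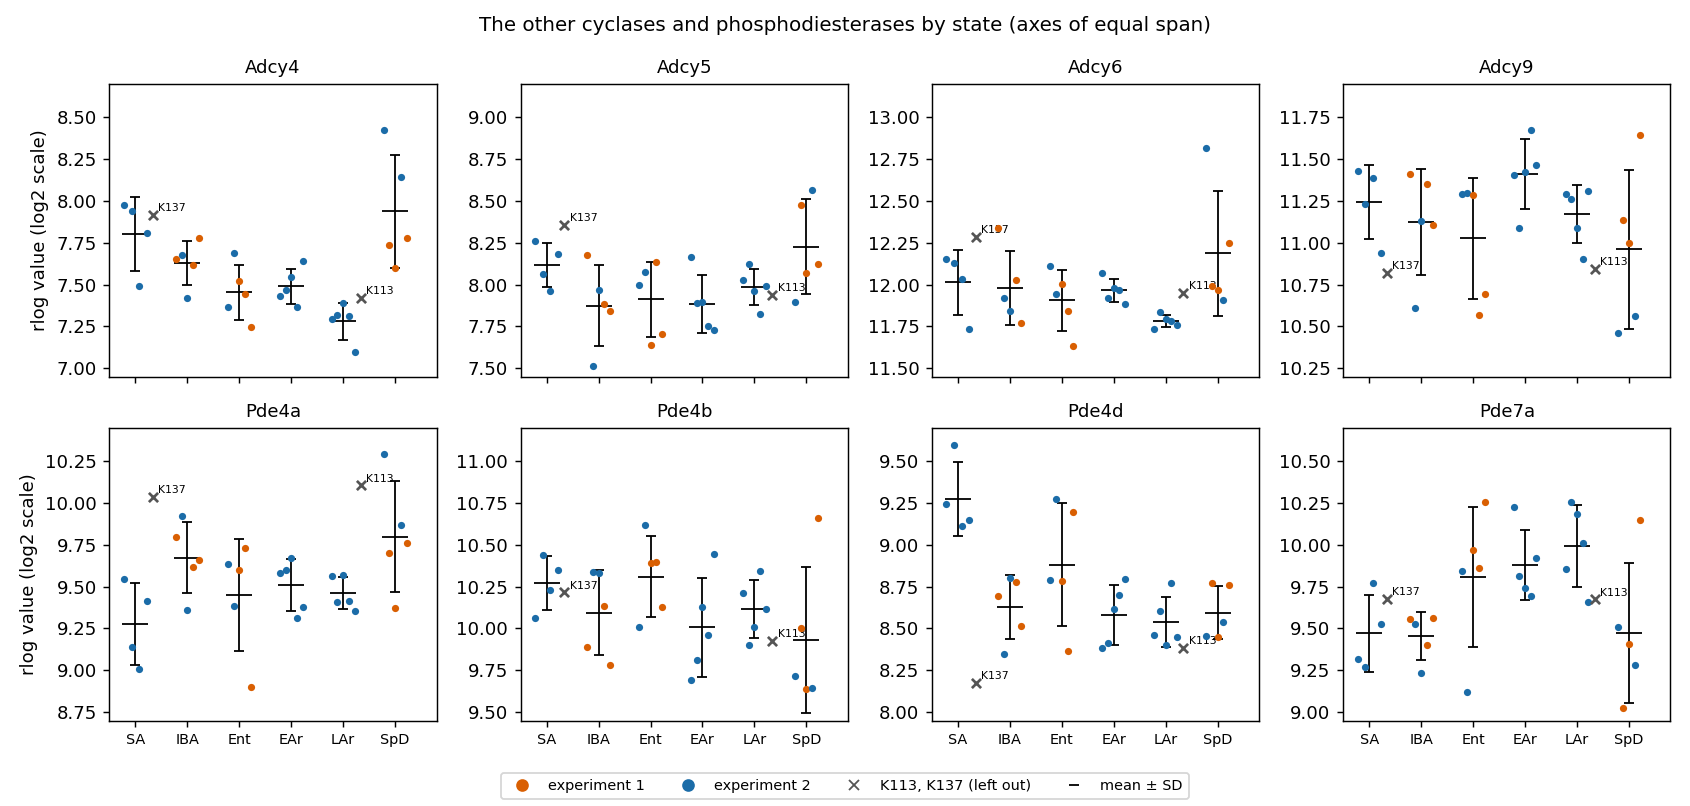
rlog values (log2 scale, y axes of equal span) of the other 8 genes in each animal by state (x axes), colored by experiment, with mean ± SD of the animals in the fit and K113 and K137 as crosses. Adcy4 is lowest in LAr (7.10 to 7.39) and highest in SpD (7.60 to 8.42), Pde4d is highest in SA (9.11 to 9.59), and Pde4a is higher in both K113 (10.10) and K137 (10.04) than in the rest of their groups.

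Counted by comparison, the 8 genes gave few calls at q under 0.001. In the active season comparison 1 of 8 was called, against 9.73% of all genes, and in SpD minus the cold states 1 of 8, against 4.28%, which was Adcy4 in both. At q under 0.05, 4 of 8 passed in the active season comparison (Adcy4, Adcy5, and Pde4d higher and Pde7a lower in the active season), against 33.4% of all genes, and 4 of 8 in SpD minus the cold states (Adcy4, Adcy6, and Pde4a higher and Pde7a lower in SpD), against 26.2%. Medians over the 8 genes were 0.10 and 0.11 in these comparisons, and medians over all genes were -0.00 in both.

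None of the 8 was called at q under 0.001 in any of the 7 pairs of states by limma. The shares of all genes called were 3.15% for IBA/SA, 0.746% for Ent/IBA, 0.132% for EAr/Ent, 0.295% for LAr/EAr, 1.43% for IBA/LAr, 1.25% for SpD/IBA, and 0.0544% for SA/SpD. At an unadjusted p under 0.05 there were 2 of the 8 in IBA/SA (36.3% of all genes), EAr/Ent (7.16%), IBA/LAr (33.4%), SpD/IBA (26.6%), and SA/SpD (29.1%), and 0 in Ent/IBA (29.4%) and LAr/EAr (8.33%). At q under 0.05 there were 2 in IBA/SA (Pde4a and Pde4d), against 22.9% of all genes, 2 in SA/SpD (Pde4a and Pde4d), against 10.5%, and 2 in IBA/LAr (Adcy4 and Pde7a), against 18% of all genes. Pairs that share a state share its animals, so IBA/SA and SA/SpD rest on the same 4 SA animals. Between females and males none was called by limma, against 0.0233% of all genes, and 0 had an unadjusted p under 0.05, against 6.41%.

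**Figure D4:**
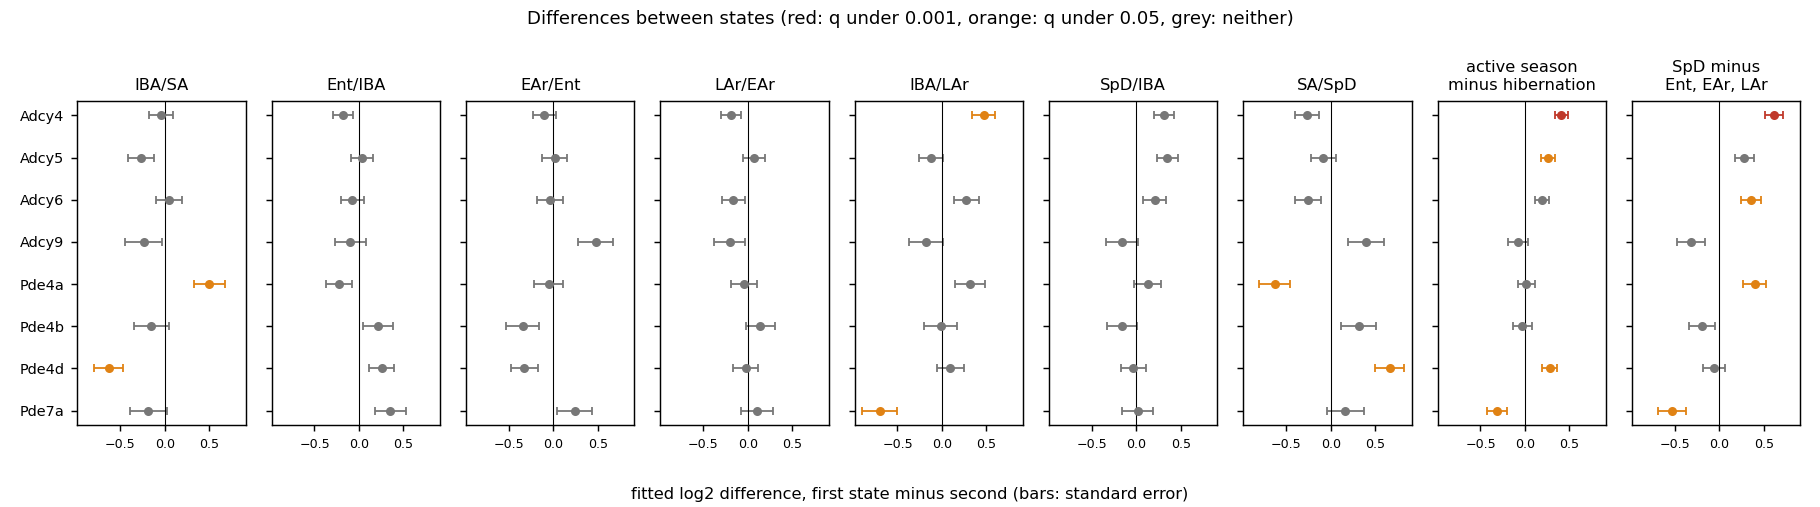
Fitted log2 differences (x axes) of the 8 genes other than Adcy1 (y axis) in the 7 pairs of states and in both seasonal comparisons, with the standard error as bars and color by q. The red points mark Adcy4, at 0.41 in the active season comparison and 0.61 in SpD minus Ent, EAr, and LAr, and no pair of states holds a red point.

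K113, K137, and K130 all lay outside the range of the rest of their states, on the same side, in 4 genes. Each was outside the range of the rest of its state in 6 of the 9 genes, above in 3 and below in 3. The share of all genes outside these ranges was not counted, so these numbers are a description only. Pde4a and Adcy6 were above the range in all 3 animals, with Pde4a at 10.10 in K113, 10.04 in K137, and 10.29 in K130. Adcy1 and Adcy9 were below it in all 3, with Adcy9 at 10.84, 10.82, and 10.46. Pde4b and Pde7a stayed within the range of each group.

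Of 68 other genes of the cAMP pathway that were listed, 52 had a row. By the limma F test across states, 4 of these 52 were called at q under 0.001 and 21 at q under 0.05, beside 9.34% and 46.1% of all genes. At q under 0.05 the 21 comprised 5 of 8 A-kinase anchoring protein genes, 4 of 9 phosphodiesterase genes, 3 of 6 protein kinase A subunit genes, 2 of 4 stimulatory and 1 of 4 inhibitory receptor genes, and 6 of the remaining 21.

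Among receptors, Adra2a, which encodes an adrenergic receptor that inhibits the cyclases, fell in the active season by 0.77 ± 0.13 log2 units (limma q = 0.000111). Its mean was 9.23 in SA and 9.48 in SpD, against 9.81 in IBA, 10.15 in Ent, 10.52 in EAr, and 10.03 in LAr, and its q across states was 0.000541. That call was lost under 10 of 38 alternatives, with q up to 0.00204 without K138 and 0.00162 with all 31 animals. Ptger4, which encodes a prostaglandin E2 receptor that stimulates them, went the other way and rose by 0.57 ± 0.11 (q = 0.00027). Its mean was 9.33 in SA and 9.15 in SpD, against 9.01 in IBA, 8.78 in Ent, 8.42 in EAr, and 8.49 in LAr, with a q across states of 0.000379. In experiment 2 alone both seasonal differences kept their sign but were not called, at -0.52 for Adra2a (q = 0.0144) and 0.55 for Ptger4 (q = 0.00329).

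Downstream of cAMP, Prkar1b, a regulatory subunit of protein kinase A, had the lowest q across states among the 52 genes (limma q = 0.000102). Its mean was 7.85 in SA, 8.10 in IBA, 8.51 in Ent, 8.49 in EAr, 8.40 in LAr, and 8.34 in SpD, so that SA was lowest. The SA animal K137, which was not in that mean, was at 8.55, and with all 31 animals q was 0.00878. Akap10, which encodes a protein that anchors protein kinase A, rose in the active season by 0.28 ± 0.05 (q = 0.000301), with means of 9.98 in SA and 9.74 in SpD, against 9.70 in IBA, 9.63 in Ent, 9.55 in EAr, and 9.44 in LAr. Its q across states was 0.000713, and this call was lost under 20 of 38 alternatives, with q up to 0.0036 without K138.

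Pde3b, a phosphodiesterase inhibited by cGMP, had a q across states of 0.0015 and fell in SpD relative to the cold states by 0.68 ± 0.12 (limma q = 0.00027), with means of 10.84 in SpD and 11.37 to 11.57 in Ent, EAr, and LAr. It was the only call among the 52 in that comparison, in which 4.28% of all genes were called. That call was lost under 4 of 38 alternatives, with q up to 0.00654 without K130 and 0.00427 with all 31 animals. In the active season comparison 4 of the 52 were called, beside 9.73% of all genes, 3 higher (Ptger4, Akap10, and Adcy7) and 1 lower (Adra2a). Adcy7, a further cyclase gene, was named after its values were seen. It rose by 0.65 ± 0.12 (q = 0.000315), with means of 9.61 in SA and 9.55 in SpD and between 8.82 and 9.01 in the 4 hibernation states. In experiment 2 alone its seasonal difference was 0.44 and was not called (q = 0.00242). None of the 52 was called in any pair of states.

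**Figure D5:**
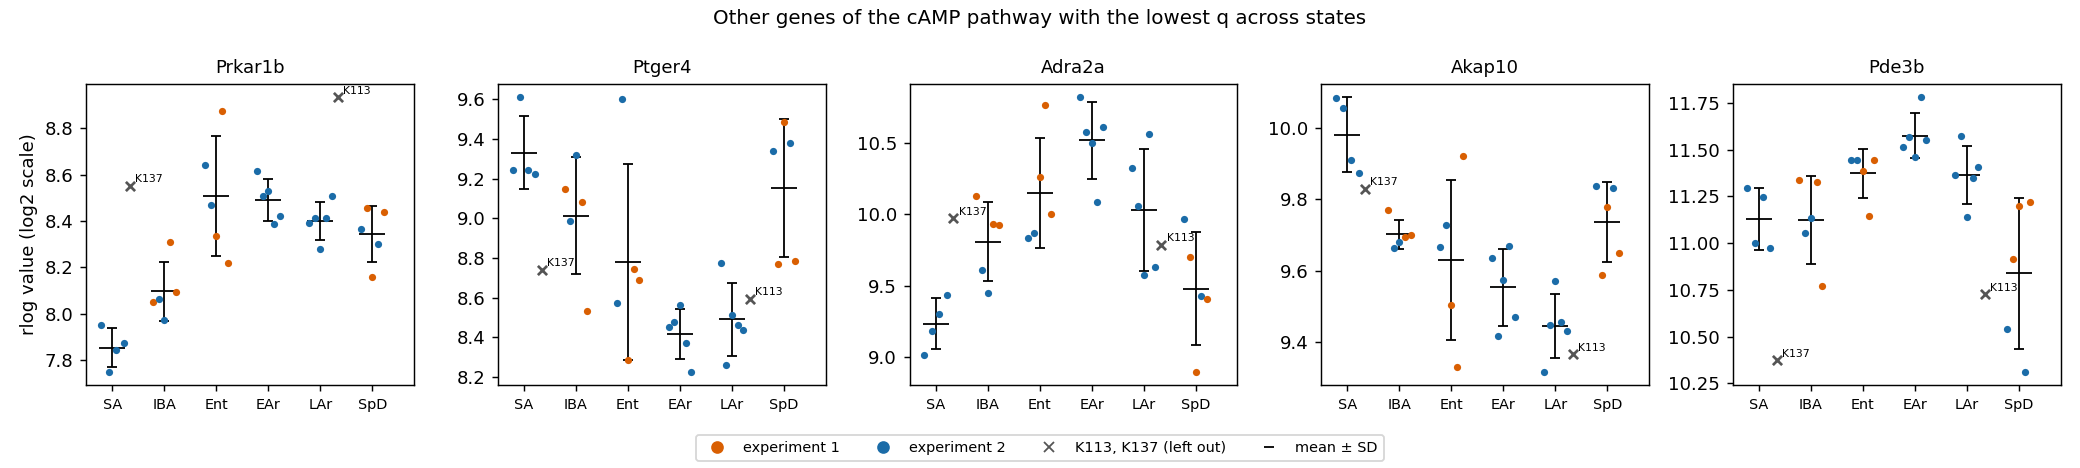
rlog values (log2 scale, y axes with their own range) of the 5 other cAMP pathway genes with the lowest q across states, in each animal by state (x axes), with mean ± SD of the animals in the fit and K113 and K137 as crosses. Adra2a is lowest in SA (mean 9.23) and highest in EAr (10.52), Ptger4 has the reverse order (9.33 and 8.42), and Pde3b is lowest in SpD (10.84).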

How the data were processed

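Kidney polyA RNA was sequenced from 31 animals. Per the study's methods and the labels, the authors used cutadapt for trimming, HISAT2 to find and set aside reads of the mitochondrial genome, and Salmon to assign the others to HiC_Itri_2 transcripts, which they summed by gene, and kept genes over a minimum level in most animals of at least 1 state. The deposited table holds log2 values made by the authors with DESeq2's rlog, and corrected for experiment with limma. Counts are not analysed here, so depth and counting error are unknown, and the authors' DESeq2 test on counts could not be repeated. Correcting first and then fitting experiment as a term again can change the estimated error.

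The log2 values of 12863 genes were fitted with limma 3.58.1 in R 4.3.3 (trended empirical Bayes, tested on simulated data), with state, sex, and experiment as terms and 29 animals. An F test across states, 7 pairs, the active season comparison (mean of SA and SpD minus mean of IBA, Ent, EAr, and LAr), SpD minus the mean of Ent, EAr, and LAr, and sex were tested, with Benjamini-Hochberg adjustment over all genes and calls at q under 0.001. The animals are separate individuals and carry no shared replicate numbers. No column was left unused.

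The genes and lists were chosen with earlier results of these data known. The text names all listed cyclases and phosphodiesterases, the 5 pathway genes with the lowest q across states, the 5 genes most like Adcy1 and the 3 most opposite by Pearson r, and markers of cell types. All 9 genes matched a RefSeq symbol; no sequence is printed. Alternatives were all 31 animals, 1 experiment alone, no term for experiment or sex, no trend, a robust fit, animal weights, median centering, genes with a mean of at least 8, q under 0.05, only the groups compared, and leaving out each animal.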

Additional observations from a re-analysis of the deposited data

Results flagged for a closer look

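A value far from the rest was looked for in 72 groups of 4 to 6 animals. SA and LAr were each checked with and without K137 and K113. In all, 1 was found: Pde4a in the LAr animal K113 was at 10.10, and the other 5 LAr animals lay between 9.36 and 9.57. The gap to the nearest animal was 0.714 of the range of the group. Chance flags about 1 in 20 such groups. K113 was left out of the fit. Opposite differences in the sexes or the experiments were looked for in 81 comparisons of a gene between 2 states. In 0 of these were the states without overlap in both sexes or both experiments but in opposite directions. The groups held different animals, as few as 2 each.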

How the results depend on the processing

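Adcy4 was called in the active season comparison under all 37 alternatives that could hold it, with q from 3.51e-05 to 0.000896. It was called in SpD minus the cold states under 34 of 37 and across states under 27 of 37. In the counts over the 8 genes, a threshold of q under 0.05 gave 2 in IBA/SA, 2 in IBA/LAr, 2 in SA/SpD, 4 in the active season comparison, 4 in SpD minus the cold states, and 3 across states, and gave 21 of the other pathway genes. With genes of a mean of at least 8 the last 3 counts of the 8 genes were each 0, because Adcy4 is under that mean. Animal weights gave 0 in SpD minus the cold states, 2 across states, and 7 other pathway genes, experiment 2 alone gave 2 in SpD minus the cold states (Adcy4 and Adcy9), dropping the term for experiment gave 0 across states, and all 31 animals gave 1 other pathway gene. Leaving out 1 animal gave 0 to 1 in SpD minus the cold states (0 without K130 or K84), 0 to 2 across states (0 without K109, K111, K115, K116, K130, K138, K139, K141, or K84, and 2 without K5), and 1 to 6 other pathway genes (1 without K139). The causes of the other shifts were not tested. Every other count of the 8 genes was the same under every alternative run.

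The Adcy1 difference IBA minus SA lay between -4.12 and -3.31 and IBA minus LAr between -0.88 and -0.23 under all 39 alternatives. SpD minus IBA ranged from 0.013 in experiment 2 alone to 1.90 in experiment 1 alone, SA minus SpD from 1.85 without K130 to 3.82 in experiment 2 alone, and the active season difference from 1.09 in experiment 2 alone to 2.20 without K130. No paired analysis was possible because the labels give the animals no shared replicate numbers. Groups of 4 to 5 animals, 2 kits, and the unknown read depth limit what could be detected.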
